A study of Mus musculus with 5 samples.

Results

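Imprinted genes are described here across mouse embryonic hearts taken at E10.5, a stage of chamber formation after looping. The members are 35 genes listed by symbol, and 34 of them had a probe set annotated with that symbol, out of 23279 genes measured on Affymetrix arrays; Zrsr1 had none. The groups were 3 arrays of hearts labelled control and 2 arrays of hearts labelled KO, all untreated. The series title names Lrrfip2, an actin-associated leucine-rich repeat protein, and concerns hypoxia in heart development. The labels do not say whether a control is wild type or heterozygous, which part of the gene the knockout removes, which strain was used, or how many hearts went into a sample. All p-values therefore measure only the spread between these 5 samples.

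An imprinted gene is transcribed mainly from the copy inherited from the mother or mainly from the copy inherited from the father, according to a methylation mark laid down in the germ line. Most such genes lie in domains that share a control region, and many act on growth: as a rule the paternally expressed ones promote fetal growth and the maternally expressed ones restrain it. In the embryo they are highly active in mesoderm and endoderm and are turned down after birth. The arrays read the total RNA of each gene, so the allele in use was not measured; the members are grouped by the allele known for the mouse, with 20 paternally and 14 maternally expressed genes measured. For Ube3a, Gnas, Dcn, Cd81, Ppp1r9a, Grb10 and Rasgrf1 the imprint depends on the tissue, and it may not hold in heart.

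Lrrfip2 itself was read at log2 levels of 7.33, 8.07 and 8.08 in control replicates 1, 2 and 3, and the knockout arrays had 6.36 and 6.22, so the values run with the labels; whether this probe set lies in the removed part was not tested. The 12 cardiomyocyte markers had a mean level of 11.2 to 11.4 on every array. On knockout replicate 2, 9 of them were below the control range (28.2% of all genes tested) and 1 above it (21.6%). The median shift there was -0.15, against -0.01 to 0.01 in the controls. On knockout replicate 1, 6 were above the range (26.6%) and 5 below it (33.9%), with a median shift of 0.05. Some arrays stand apart in their cell type markers. Knockout replicate 2 had all 15 measured liver and gut endoderm markers above every other array: their mean level was 8.02 there and 4.29 to 4.37 on the other 4 arrays, with Afp at 11.42 against 3.86 to 4.07. Mesenchyme markers were at a mean level of 6.15 in knockout replicate 1 and 6.39 in control replicate 3; the other arrays had 7.12 to 7.44, highest in knockout replicate 2. In such bulk samples fewer cells of a type and less RNA per cell cannot be told apart.

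The sequences that the results turn on come from the RefSeq tables of build GRCm38.p6. The first set are mature microRNAs of the Dlk1-Meg3 domain, shown because most of their hairpins were high on the same array. They belong to the 7 hairpin loci whose probe set passed the filter on dim genes and was at least 2-fold above the control mean in knockout replicate 2, and to Mir127, which lies antisense to the member Rtl1. The filter used the mean over all arrays, and Mir337, with a control mean of 4.32 and 4.14 on knockout replicate 1, passed it only through knockout replicate 2. The seed, bases 2 to 8, is in capitals.
mmu-miR-377-3p: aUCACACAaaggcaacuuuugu
mmu-miR-377-5p: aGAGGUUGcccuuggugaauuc
mmu-miR-154-3p: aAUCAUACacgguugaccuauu
mmu-miR-154-5p: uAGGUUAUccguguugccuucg
mmu-miR-453: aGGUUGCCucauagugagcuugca
mmu-miR-3070-3p: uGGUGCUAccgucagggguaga
mmu-miR-3070-2-3p: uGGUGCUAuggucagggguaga
mmu-miR-3070-5p: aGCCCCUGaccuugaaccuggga
mmu-miR-493-3p: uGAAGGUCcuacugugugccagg
mmu-miR-493-5p: uUGUACAUgguaggcuuuc
mmu-miR-337-3p: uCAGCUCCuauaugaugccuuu
mmu-miR-337-5p: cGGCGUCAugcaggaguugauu
mmu-miR-127-3p: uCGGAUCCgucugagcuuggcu
mmu-miR-127-5p: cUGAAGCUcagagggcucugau
The 3p products of Mir3070a and Mir3070b share the seed GGUGCUA, and both loci give the same 5p sequence. Over the 50 loci of the domain on the array, the table holds 94 mature entries, and 8 seeds occur at 2 or more loci.

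The second set are promoter windows of members, from 250 bases before to 50 after the annotated start. Windows were found for 28 listed genes, 43 windows in all, and they held a median of 14 CpG dinucleotides against 7 over all 32851 windows of the table. Meg3 and Zim1 are shown for the hexamer TGCCGC, which the zinc finger protein ZFP57 binds when it is methylated and through which imprints are kept in the early embryo; it is in capitals, on either strand (GCGGCA on the other).
Meg3, chr12:109540746-109541045, plus strand: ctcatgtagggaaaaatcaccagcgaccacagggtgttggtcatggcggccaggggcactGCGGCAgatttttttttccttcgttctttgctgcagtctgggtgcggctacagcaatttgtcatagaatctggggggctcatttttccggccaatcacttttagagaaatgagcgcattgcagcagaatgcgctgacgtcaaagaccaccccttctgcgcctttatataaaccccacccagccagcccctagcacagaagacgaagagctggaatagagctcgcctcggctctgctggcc
Zim1, chr7:6696383-6696682, minus strand: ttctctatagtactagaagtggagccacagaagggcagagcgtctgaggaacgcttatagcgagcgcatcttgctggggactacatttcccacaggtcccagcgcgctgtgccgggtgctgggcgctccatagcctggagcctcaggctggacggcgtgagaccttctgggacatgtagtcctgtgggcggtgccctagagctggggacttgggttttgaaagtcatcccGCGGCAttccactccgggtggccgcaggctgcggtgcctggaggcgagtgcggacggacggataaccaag
This hexamer was found for 9 of the 28 genes (Grb10, Igf2, Meg3, Mest, Nap1l5, Nnat, Plagl1, Snrpn and Zim1), or 32.14%, against 13.05% of all 27025 genes in the table. A gene counts if any of its windows has a match, so genes with more windows count more readily. The hexamer contains a CpG, and the shares were not matched for the higher CpG count of the members' windows. By window the shares were 23.26% of the 43 and 11.61% of all 32851. Dlk1, Peg3, Asb4 and Ppp1r9a are shown with the core of the hypoxia response element, ACGTG or GCGTG on either strand (CACGT or CACGC on the other), in capitals, since the title concerns hypoxia; each window has only the motif it is shown for in capitals.
Dlk1, chr12:109452573-109452872, plus strand: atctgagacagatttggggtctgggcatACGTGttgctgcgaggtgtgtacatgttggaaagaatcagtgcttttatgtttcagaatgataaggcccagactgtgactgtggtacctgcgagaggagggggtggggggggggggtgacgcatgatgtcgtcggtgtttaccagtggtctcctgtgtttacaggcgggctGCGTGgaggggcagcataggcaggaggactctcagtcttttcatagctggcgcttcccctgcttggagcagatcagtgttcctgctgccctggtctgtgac
Peg3, chr7:6730370-6730669, minus strand: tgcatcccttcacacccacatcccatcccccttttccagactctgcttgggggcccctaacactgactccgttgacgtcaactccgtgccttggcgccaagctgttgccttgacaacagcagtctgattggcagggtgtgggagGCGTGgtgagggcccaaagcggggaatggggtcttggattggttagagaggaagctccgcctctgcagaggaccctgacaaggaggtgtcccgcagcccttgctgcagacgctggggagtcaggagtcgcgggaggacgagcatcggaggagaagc
Asb4, chr6:5390160-5390459, plus strand: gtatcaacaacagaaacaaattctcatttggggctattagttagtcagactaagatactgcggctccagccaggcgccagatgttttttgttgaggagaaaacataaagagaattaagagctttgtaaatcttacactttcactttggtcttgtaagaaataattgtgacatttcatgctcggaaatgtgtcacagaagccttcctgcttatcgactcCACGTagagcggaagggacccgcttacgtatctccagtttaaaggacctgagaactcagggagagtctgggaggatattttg
Ppp1r9a, chr6:4903061-4903360, plus strand: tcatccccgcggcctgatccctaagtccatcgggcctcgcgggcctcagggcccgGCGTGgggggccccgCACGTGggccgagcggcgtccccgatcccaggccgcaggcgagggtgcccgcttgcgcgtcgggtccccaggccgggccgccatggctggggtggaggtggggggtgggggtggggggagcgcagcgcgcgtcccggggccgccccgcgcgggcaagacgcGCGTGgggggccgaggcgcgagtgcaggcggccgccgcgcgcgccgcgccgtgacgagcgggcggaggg
At least 1 such core stood in the windows of 19 of the 28 genes (67.86%), and in those of 46.73% of all genes. By window the shares were 55.81% and 43.77%. The cores contain a CpG as well, and these shares were not matched for CpG count either. These short letters are a description of the windows and not of binding. The Peg3 window shares 263 bases with that of Usp29, which is read from the opposite strand.

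No imprinted gene passed the adjusted threshold between knockout and control, and the wider shifts were on 1 knockout array at a time. Genes with a mean level under the 40th percentile (log2 level 4.44) were set aside as dim. That left 30 members with a test, 18 paternally and 12 maternally expressed, and 4 without 1: Phlda2, Slc22a18, Rasgrf1 and Dio3. Knockout was compared with control by limma across the 13967 genes that passed, with Benjamini-Hochberg adjustment. In that fit 0 members and 0 genes (0% of those tested) passed an adjusted p of 0.05. At an unadjusted p under 0.05 stood 1 member, Ppp1r9a, higher in the knockout, against 8.78% of all genes tested. The median log2 difference, knockout minus control, was 0.05 for the paternally and 0.09 for the maternally expressed members, and -0.02 for all genes tested. For the 6 maternally expressed members whose imprint does not depend on tissue it was 0.27, with a median shift of 0.41 in knockout replicate 2. The mean was lower in the knockout for 9 of the 30 tested members, against 54.4% of all genes tested. In knockout replicate 1 taken alone the median shift from the control mean was -0.11 for paternally and 0.09 for maternally expressed members, and in knockout replicate 2 it was 0.05 and 0.10. The SD of the same shift among the control arrays was 0.05 and 0.04. For scale, 12 known targets of hypoxia-inducible factor measured on the same arrays had a median difference of 1.29, with 12 of 12 higher.

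**Figure D1:**
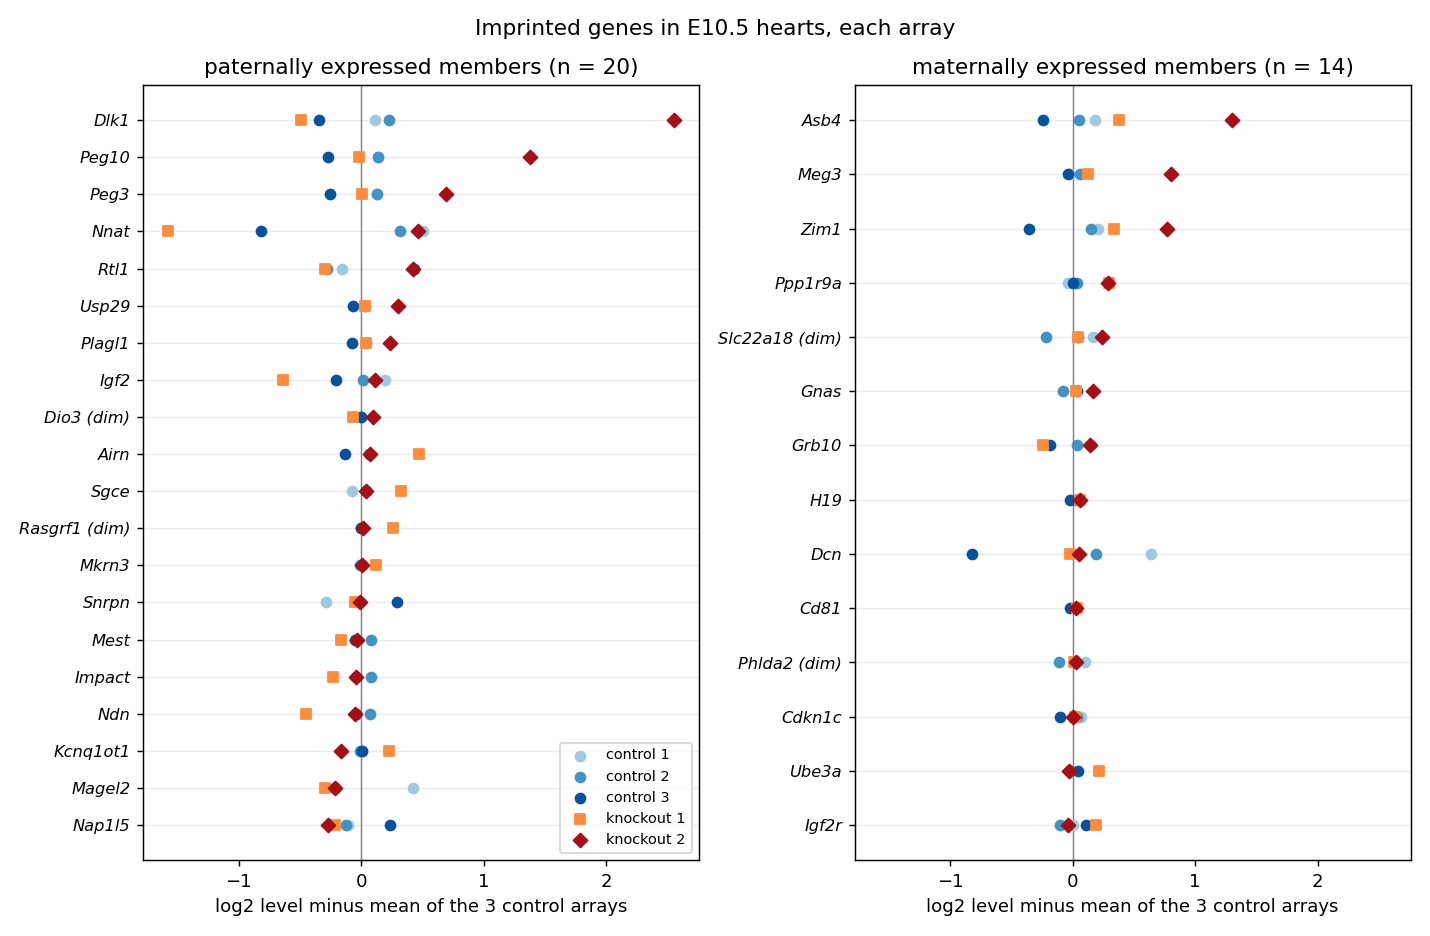
Level of each measured imprinted gene on each array, as the log2 level minus the mean of the 3 control arrays (x axis), with paternally expressed genes on the left and maternally expressed genes on the right; blue circles are control arrays, the orange square is knockout replicate 1 and the dark red diamond knockout replicate 2. Dlk1, Peg10 and Asb4 reach 2.55, 1.38 and 1.30 in knockout replicate 2, Nnat falls to -1.57 in knockout replicate 1, and for most other genes the knockout arrays lie near the controls.

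Taken against the range of the controls, knockout replicate 1 was above it for 12 of the 30 tested members (26.6% of all genes) and below it for 10 (33.9%), and was strictly the lowest array for 9 (28.8%) and the highest for 8 (24.1%). Knockout replicate 2 was above the range for 11 (21.6%) and below it for 3 (28.2%). Both comparisons use the same 3 controls. Among the tested members, counts by allele differed in direction. Both knockout arrays lay above all controls for 5 tested members, against 8.18% of all genes tested, and these 5 were maternally expressed: H19, Meg3, Zim1, Ppp1r9a and Asb4. Both lay below all controls for 2 tested members, against 13.1% of all genes, and these were the paternally expressed Ndn and Nap1l5. Of the dim members, the paternally expressed Rasgrf1 lay above all controls on both knockout arrays. Set against the background, 5 of 30 above is more than the share of all genes and 2 of 30 below is less. With 10 possible splits of the 5 arrays no permutation p can fall under 0.1, and the difference between the alleles was not tested.

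Ppp1r9a encodes neurabin, which binds actin and carries protein phosphatase 1 to the cytoskeleton, and it is imprinted mainly in the placenta. Its level was 7.81, 7.88 and 7.85 in the control arrays and 8.14 and 8.14 in the knockout arrays. The groups were apart by more than the spread within either, and the knockout arrays had nearly the same value. The log2 difference was 0.29 ± 0.04 (SE), a 1.22-fold higher level, with a 95% interval of 0.19 to 0.40, an unadjusted p of 0.00136 and, after adjustment in limma, a p of 0.339. Leaving out any 1 array kept the difference between 0.27 and 0.31. Of the 4 members of the Peg10-Sgce domain, in which Ppp1r9a lies, it alone had the same height in both knockout arrays.

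Its neighbour Asb4, an ankyrin repeat protein of a ubiquitin ligase, was read at 8.83, 8.70 and 8.41 in the controls, with 9.02 for knockout replicate 1 and 9.95 for replicate 2. The arrays did not overlap, but the distance was 0.38 for knockout replicate 1 and 1.30 for knockout replicate 2, and the log2 difference of 0.84 ± 0.33 (SE) gave 0.57 as adjusted p in limma. The retrotransposon-derived gene Peg10 was at 8.74, 8.74 and 8.33 in the controls, with 8.59 for knockout replicate 1 and 9.98 for replicate 2. Here knockout replicate 1 lay inside the control range and knockout replicate 2 stood 2.60-fold above the control mean. Sgce, which encodes a sarcoglycan and shares its promoter region with Peg10, did the reverse: it was at 6.87, 6.98 and 6.98 in the controls, with 7.27 for knockout replicate 1 and 6.98 for replicate 2. The genes of this domain thus differed in which knockout array was high.

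The Dlk1-Meg3 domain held the member with the widest difference between the knockout arrays, 3.05 for Dlk1. Dlk1 encodes a membrane protein related to Notch ligands that marks growing, undifferentiated cells, fetal liver cells among them. Its level was 7.52, 7.64 and 7.06 in the controls, with 6.91 for knockout replicate 1 and 9.96 for replicate 2. Knockout replicate 1 was thus the lowest of the 5 arrays and knockout replicate 2 the highest, 5.87-fold above the control mean. The log2 difference over both was 1.03 ± 0.997 (SE), with an adjusted p of 0.655 in limma and a 95% interval of -1.73 to 3.79. It was -0.50 without knockout replicate 2 and 2.55 without knockout replicate 1.

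Meg3, the maternally expressed non-coding RNA of the domain, was at 9.85, 9.93 and 9.83 in the controls, with 9.997 for knockout replicate 1 and 10.67 for replicate 2. It was above the controls on both knockout arrays, by 0.13 and 0.80. The non-coding RNAs Rian and Mirg, which follow Meg3 on the same strand, are not members but complete the domain. Rian was at 8.89, 8.96 and 8.78 in the controls, with 9.18 for knockout replicate 1 and 9.82 for replicate 2 (log2 difference 0.62, unadjusted p = 0.0422, adjusted p = 0.549 in limma). Mirg was at 6.84, 6.91 and 6.63 in the controls and at 7.08 and 7.83 in the knockout arrays. In both knockout arrays all 3 maternal transcripts were above the controls, more so in knockout replicate 2.

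The other paternally expressed protein genes of the domain had smaller distances from the controls. Rtl1, derived from a retrotransposon and needed for placental vessels and fetal muscle, was at 4.44, 4.32 and 5.03 in the controls, with 4.31 for knockout replicate 1 and 5.02 for replicate 2, which is within the control range. Dio3, which inactivates thyroid hormone, was dim, at 3.35 in each control, 3.28 in knockout replicate 1 and 3.44 in knockout replicate 2. As for Dlk1, knockout replicate 1 was the lowest array for both genes.

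Between Meg3 and Dio3 the RefSeq table holds 58 microRNA hairpins, of which 50 had a probe set, taken by position after the levels of the members had been seen. Of these 50 probe sets, 25 were tested and 25 were dim. Most of the hairpins are processed from the maternal transcripts, but position does not show this for each, and Mir1247 lies nearest the Dio3 end. Such a probe set reads RNA that contains the hairpin, and it was not shown to read the mature microRNA. In knockout replicate 2 the probe set was strictly the highest of the 5 arrays for 38 of the 50 loci, against 16.1% of all measured genes, and at least 1.5-fold above the control mean for 21, against 2.12%. The median shift over the 50 loci was 0.43 in knockout replicate 2, 0.03 in knockout replicate 1 and -0.05 to 0.03 in the controls. Those counts and shifts include the dim probe sets. At an unadjusted p under 0.05 in limma over both knockout arrays there were 0 of the 25 tested loci, and adjusted 0 of 25. Most of the loci share transcripts and are not independent.

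Mir377, whose sequences stand above, was at 4.89, 4.77 and 4.11 in the controls, with 5.04 for knockout replicate 1 and 6.39 for replicate 2. Mir493, near the other end of the domain, was at 6.88, 6.68 and 6.72 in the controls, with 6.42 for knockout replicate 1 and 8.02 for replicate 2. For the dim probe set of Mir127, the antisense partner of Rtl1, the values were 4.02, 3.58 and 3.24 in the controls. Knockout replicate 1 had 3.45 and replicate 2 had 4.84. At these loci knockout replicate 2 stood above the next highest array by more than the range of the controls. Mir377 and Mir493 had been picked for a high level on that array, so its height there follows from the choice. At other loci, such as Mir136 and Mir494, which were dim, and Mir1247, knockout replicate 2 lay within the control range.

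**Figure D2:**
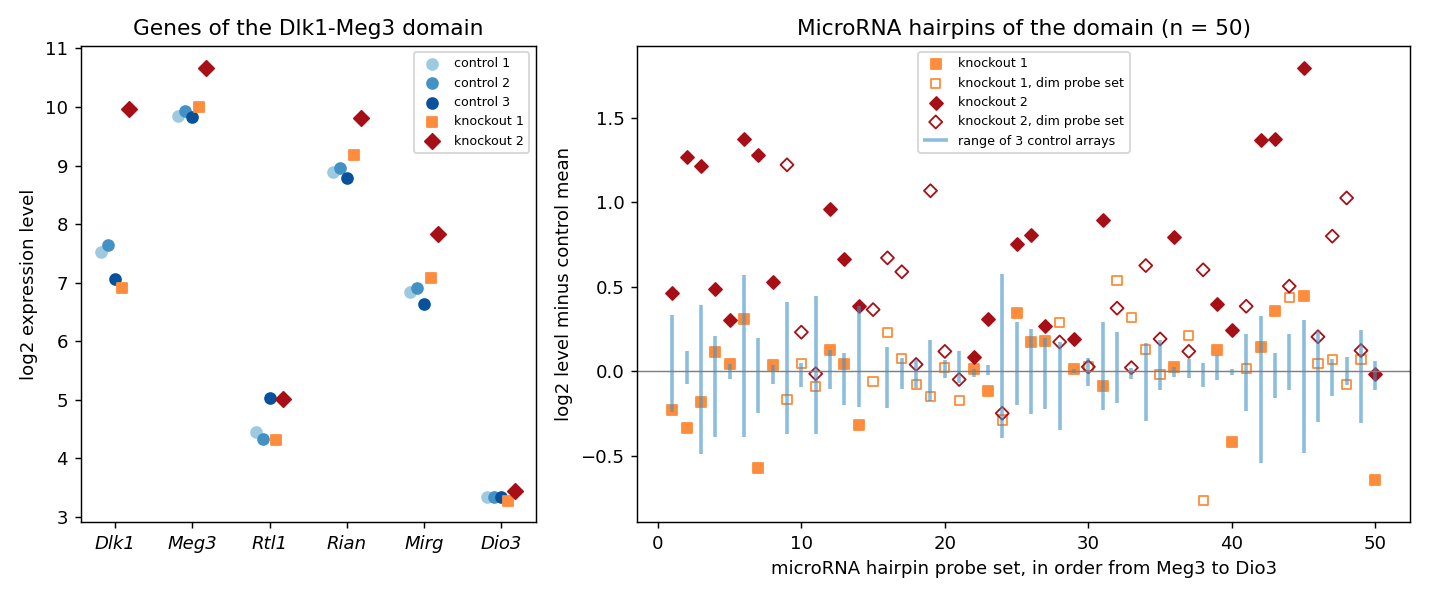
Left, log2 level of 6 genes of the Dlk1-Meg3 domain on each of the 5 arrays. Right, the 50 microRNA hairpin probe sets in their order along the domain, with the distance of each knockout array from the control mean, bars for the range of the 3 control arrays and open symbols for dim probe sets; knockout replicate 2 is the highest of the 5 arrays for 38 of the 50 loci, and its median shift is 0.43.

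Liver and gut endoderm markers move with these values: they are high on knockout replicate 2 and at control level on knockout replicate 1 (mean levels 8.02 and 4.34). Of the mesenchyme markers, 6 of 9 were strictly highest on knockout replicate 2, while Prrx2 was below all controls there. Their mean level was lowest on knockout replicate 1 and control replicate 3, where Dlk1 was also lowest. Meg3 and Asb4 differed from them on knockout replicate 1, where both were above all controls (9.997 and 9.02), and Peg10 (8.59) was within the control range. The part of either cell type in the levels of Dlk1, Meg3, Peg10, Asb4 and the hairpins was not tested. Counted over all tested members, 10 of 30 were strictly highest on knockout replicate 2, against 15.9% of all genes, and 6 of 30 were at least 1.5-fold above the control mean there (Dlk1, Peg10, Asb4, Meg3, Zim1 and Peg3), against 2.59%. None was that far below it, against 1.35%. On knockout replicate 1, 0 members were 1.5-fold above (4.17% of all genes) and 2 were 1.5-fold below (4% of all genes), Nnat and Igf2.

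The Peg3 domain holds genes for zinc finger proteins and a ubiquitin protease. Peg3, a regulator of maternal care and fetal growth, was at 10.64, 10.64 and 10.25 in the controls, with 10.52 for knockout replicate 1 and 11.21 for replicate 2. Its maternally expressed neighbour Zim1 was at 8.97, 8.92 and 8.41 in the controls and 9.10 and 9.53 in the knockout arrays (log2 difference 0.55 ± 0.24 SE, adjusted p = 0.57 in limma). Usp29, read from the shared promoter region, was at 4.84, 4.84 and 4.74 in the controls and 4.84 and 5.11 in the knockout arrays. All 3 were highest on knockout replicate 2, whichever parental allele is in use, and lowest among the controls in replicate 3. On the same knockout array 15 of 15 endoderm, 6 of 9 mesenchyme and 4 of 7 epicardial markers were strictly highest (16.1% of all measured genes). The mesenchyme marker Prrx2 and the epicardial marker Upk1b went the other way and were below all controls there. Among the controls, the mesenchyme markers had their lowest mean in replicate 3. The part of these cell types was not tested.

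In the Igf2-H19 domain the growth factor and the non-coding RNA behaved differently. Igf2, the main fetal growth factor, was at 10.92, 10.74 and 10.52 in the controls, with 10.09 for knockout replicate 1 and 10.84 for replicate 2. Only knockout replicate 1 was below the controls, 1.55-fold under their mean, and the log2 difference of -0.26 ± 0.27 (SE) had an adjusted p of 0.676. Among the controls Igf2 was lowest in replicate 3, which with knockout replicate 1 also had the lowest mesenchyme and epicardial markers; their part was not tested. H19, whose RNA is transcribed from the maternal copy where Igf2 is silent, was at 11.38, 11.38 and 11.34 in the controls and 11.43 and 11.43 in the knockout arrays. These groups did not overlap, yet the difference of 0.06 is a 1.04-fold one with a 95% interval of -0.03 to 0.15.

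The receptors and inhibitors that act on IGF2 had no test past an unadjusted p of 0.05 either. Igf2r, which removes IGF2 to the lysosome, was at 10.77, 10.66 and 10.87 in the controls and 10.96 and 10.73 in the knockout arrays. Airn, the antisense RNA that silences Igf2r on the paternal copy, was at 5.83, 5.82 and 5.62 in the controls, with 6.23 for knockout replicate 1 and 5.83 for replicate 2. Airn overlaps Igf2r, so the probe sets of these genes may not be independent. Grb10, an adaptor that dampens insulin and IGF receptor signalling, was at 10.89, 10.77 and 10.56 in the controls and 10.499 and 10.88 in the knockout arrays, a difference of -0.05 with a 95% interval of -0.51 to 0.41. Of 11 measured genes of IGF receptor signalling, 6 had a higher and 5 a lower mean in the knockout, with 0 at an unadjusted p under 0.05 in limma (8.78% of all genes) and 0 adjusted. The lowest p belonged to Akt1 (-0.35), Insr (0.30), Pik3ca (0.18) and Irs2 (0.13).

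Most genes of the Kcnq1ot1 domain had levels within or beside the narrow range of the controls. Cdkn1c, an inhibitor of cyclin-dependent kinases that restrains growth of the compact myocardium, was at 8.64, 8.61 and 8.47 in the controls and 8.59 and 8.57 in the knockout arrays. The difference of 0.01 had a 95% interval of -0.17 to 0.19. Cd81, a tetraspanin, was at 11.08, 11.06 and 11.03 in the controls and 11.10 and 11.08 in the knockout arrays. Phlda2, which limits placental growth, was dim at 3.79 to 3.99, and Slc22a18, a transporter, at 4.14 to 4.52 in the controls and 4.40 and 4.597 in the knockout arrays.

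The RNA that names the domain is Kcnq1ot1, an antisense RNA that silences it on the paternal copy. The controls were at 8.42, 8.41 and 8.42, knockout replicate 1 at 8.64 and knockout replicate 2 at 8.25. The knockout arrays lay on opposite sides of a narrow control range, and the difference over both was 0.03 with an adjusted p of 0.93 in limma. With knockout replicate 2 left out the difference was 0.22. With knockout replicate 1 left out it was -0.16. In these fits the lone knockout array is assumed to vary like the controls. Replicates 1 and 3 of the controls had an equal value here; ties between 2 or more arrays occurred in 14 of the 30 tested members and in 54.8% of all genes.

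Among the 11 cyclins, cyclin-dependent kinases and inhibitors measured beside Cdkn1c, 2 were higher and 9 lower in the knockout mean (54.4% of all genes were lower). At an unadjusted p under 0.05 were Ccne2 (-0.14) and Ccnd2 (-0.18), both lower (5.49% of all genes were lower by that rule), with an adjusted p of 0.434 and 0.491 in limma.

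**Figure D3:**
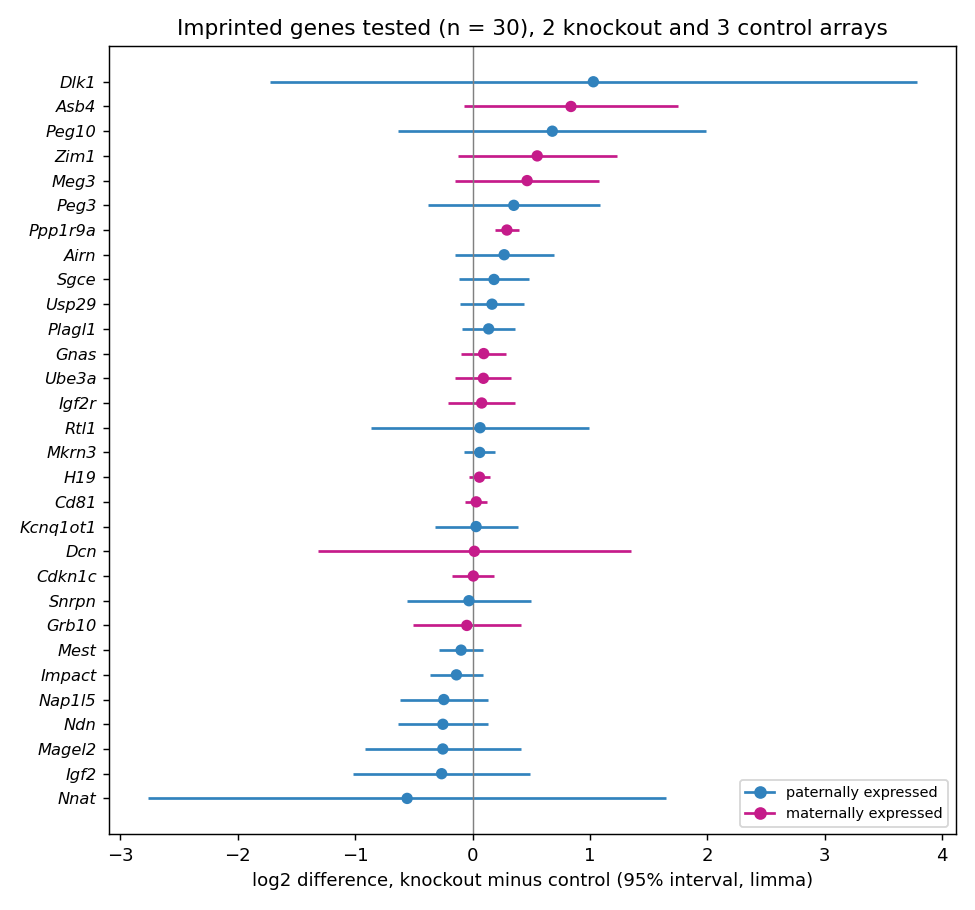
Log2 difference, knockout minus control, of the 30 tested imprinted genes with its 95% interval from limma; blue marks paternally and magenta maternally expressed genes. The interval of Ppp1r9a runs from 0.19 to 0.40 and excludes 0, and those of all other members include it, with Dlk1 reaching from -1.73 to 3.79.

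The Snrpn domain, whose loss in people underlies Prader-Willi and Angelman syndromes, had 1 member, Ndn, with both knockout arrays below the controls. Ndn, a MAGE family protein, was at 6.67, 6.78 and 6.66 in the controls, with 6.25 for knockout replicate 1 and 6.65 for replicate 2. The second value lies just under the lowest control, so the groups did not overlap although only knockout replicate 1 was far from them. The difference was -0.25 ± 0.14 (SE), with an adjusted p of 0.57. The related gene Magel2 was at 5.37, 4.73 and 4.73 in the controls and 4.65 and 4.73 in the knockout arrays, with control replicate 1 standing apart. Snrpn, a protein of the spliceosome, was at 5.20, 5.47 and 5.78 in the controls, and the knockout arrays, at 5.43 and 5.47, lay within that range.

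The ubiquitin ligase genes Ube3a and Mkrn3 of the same domain were above the controls on knockout replicate 1 only. Ube3a was at 8.88, 8.90 and 8.95 in the controls and 9.12 and 8.88 in the knockout arrays, and Mkrn3 was at 5.02, 5.01 and 5.02 against 5.14 and 5.02.

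Outside these domains, Dcn and Nnat had the widest spread among the controls of all members (SD 0.75 and 0.72, n = 3). Nnat, a small membrane proteolipid of neural and endocrine cells, was at 10.25, 10.06 and 8.93 in the controls, with 8.17 for knockout replicate 1 and 10.21 for replicate 2. Its values followed no group: the lowest were knockout replicate 1 and control replicate 3, the same arrays in which the mesenchyme markers were lowest, with mean levels of 6.15 and 6.39 against 7.12 to 7.44. The epicardial markers were lowest there as well, at 7.02 and 7.16 against 7.45 to 7.51. The part of these cell types in the level of Nnat was not tested. The difference was -0.56 ± 0.80 (SE), with an adjusted p of 0.76 in limma.

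Dcn, a small proteoglycan of connective tissue, was at 7.47, 7.02 and 6.004 in the controls and 6.81 and 6.88 in the knockout arrays. The controls spanned more than the knockout arrays, and the 95% interval of the difference, -1.32 to 1.35, is wide. The mesenchyme markers were also lowest among the controls in replicate 3, whereas knockout replicates 1 and 2, far apart in those markers, were close in Dcn.

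For several growth-related genes the 5 arrays lay close together. Plagl1, a zinc finger regulator of other imprinted genes, was at 10.54, 10.54 and 10.42 in the controls and 10.54 and 10.74 in the knockout arrays. Mest, a hydrolase-like protein of mesoderm, was at 11.61, 11.71 and 11.59 against 11.47 and 11.61. Impact, which restrains the amino acid sensor kinase GCN2, was at 8.08, 8.20 and 8.08 against 7.89 and 8.08. Their 95% intervals were -0.09 to 0.37, -0.29 to 0.09 and -0.36 to 0.09.

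The remaining genes were low. Gnas, at a locus that makes the stimulatory G protein subunit and other transcripts, was at 5.56, 5.44 and 5.56 in the controls and 5.54 and 5.68 in the knockout arrays, and its probe set may read only part of the locus. Nap1l5, a nucleosome assembly protein, was at 4.98, 4.96 and 5.32 against 4.87 and 4.81, with both knockout arrays below all controls and a difference of -0.24 (adjusted p = 0.57 in limma). Rasgrf1, an activator of Ras, was dim, with 3.35 in each control and 3.604 and 3.36 in the knockout arrays.

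**Figure D4:**
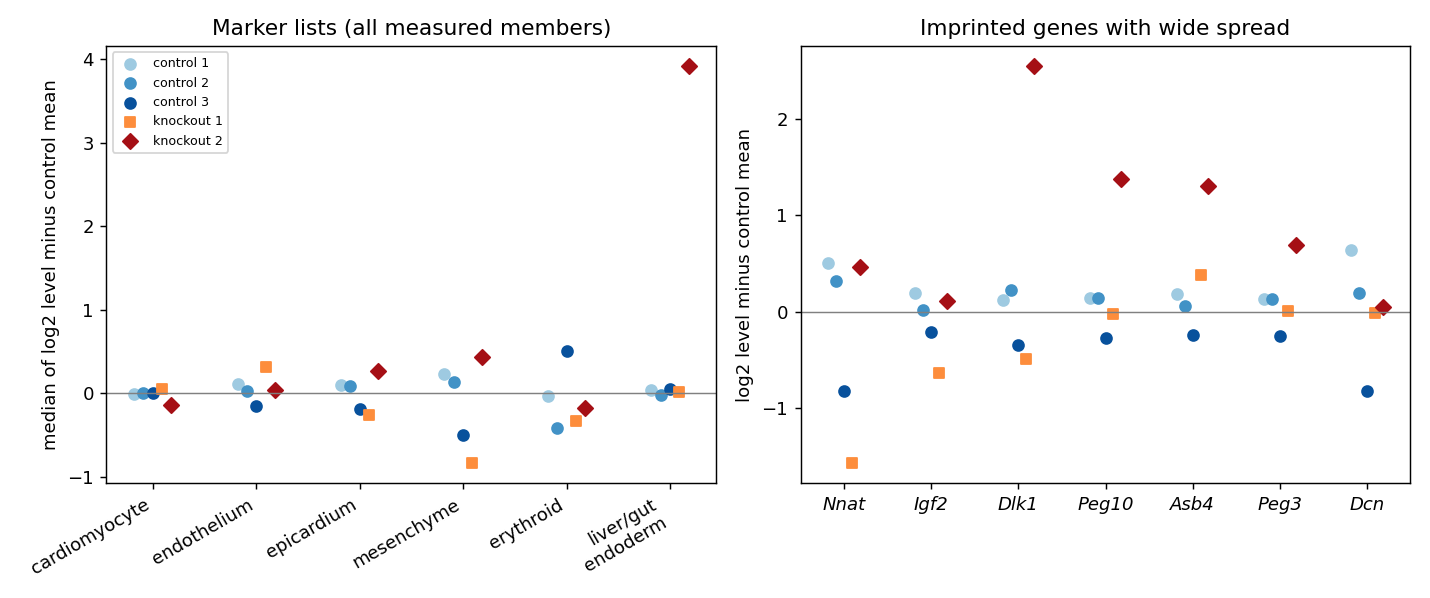
Left, shift of 6 cell type marker lists on each array, as the median over the measured markers of the log2 level minus the control mean. Right, the same distance for 7 imprinted genes; knockout replicate 2 is highest for the endoderm markers (3.92) and for Dlk1 (2.55), and knockout replicate 1 lowest for the mesenchyme markers (-0.84) and for Nnat (-1.57).

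A wider list of 46 other imprinted genes had 41 measured and 32 tested. Of these 32, 13 had a higher and 19 a lower mean in the knockout, with a median difference of -0.02, against -0.02 for all genes tested. Both knockout arrays lay above all controls for 5 of the 32 (8.18% of all genes) and below all controls for 9 (13.1%). These genes were not grouped by allele. At an unadjusted p under 0.05 there were 2 higher (3.29% of all genes) and 3 lower (5.49%). Rian and Jade1 (0.16), a histone acetylation cofactor, were higher, and the adaptor gene Gab1 (-0.27), Tssc4 (-0.43), near Kcnq1ot1, and the paraoxonase gene Pon3 (-0.23), near Ppp1r9a, were lower (smallest adjusted p = 0.364 in limma, for Gab1 and Tssc4). Tssc4 was at 6.81, 6.77 and 6.90 in the controls and 6.30 and 6.50 in the knockout arrays.

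Of 21 genes that set or keep imprints, 19 were tested, with 6 higher, 11 lower, 2 equal and a median of -0.01. Tet2, a dioxygenase that oxidises methylated cytosine, stood at an unadjusted p of 0.0455 (adjusted p = 0.555 in limma). Its level was 6.82, 6.85 and 6.80 in the controls, with 7.96 for knockout replicate 1 and 7.16 for replicate 2. The related Tet1 was at 7.40, 7.29 and 7.34 in the controls and 8.20 and 7.59 in the knockout arrays. Both were above all controls on each knockout array and higher in knockout replicate 1. The imprint-keeping zinc finger genes Zfp57 (0.19) and Zfp445 (0.10) were above the controls on both arrays too, at an unadjusted p of 0.125 and 0.112. These 4 of the 19 lay above all controls on both arrays, against 8.18% of all genes. On knockout replicate 1 alone, Uhrf1, which brings DNMT1 to newly copied DNA, differed from the control mean by -0.81, Trim28, the partner of ZFP57, by -0.61 and the maintenance methyltransferase gene Dnmt1 by -0.40. They were named after their values were seen. On that array 7 of the 19 were below the control range (33.9% of all genes) and 6 above it (26.6%). At least 1.5-fold below the control mean were 2 (4% of all genes), and 2 were that far above it (4.17%).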

How the data were processed

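Values are log2 expression levels, deposited by the authors as 1 table of 24479 probe sets on 5 arrays; the submitters' processing notes name Affymetrix Expression Console and RMA, a method that corrects background, equalises the array distributions and summarises each probe set. For versions, probe set definitions and build, the sources used here give nothing. Per the labels' protocols, Trizol RNA was amplified and labelled with a whole-transcript kit. A symbol was annotated for 23281 sets, 23156 of them matched to RefSeq (GRCm38.p6); the brightest set per gene gave 23279 genes, and 9312 with a mean under the 40th percentile were not tested. Array medians were 5.10 to 5.14, and correlations between arrays 0.986 to 0.996, lowest between the knockout arrays.

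Knockout and control were compared with limma 3.58.1 in R 4.3.3 (lmFit, eBayes, two-sided, no covariate). The fit was checked on simulated data in which both groups varied like the controls. A wider spread between the knockout arrays was not covered by that check. Distances of 1 array from the control mean carry no test. The number of arrays limits the precision. All 35 members are named, and of each other list up to 4 genes with the smallest p; Mirg, the hairpins, Pon3, Afp, Uhrf1, Trim28 and Dnmt1 were added after their values were seen. Members, lists and tests were chosen with earlier results of these data known. Alternatives concerned the dim filter, variance prior, array weights, normalization, centring, probe set averaging, tissue-dependent members and each array left out.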

Additional observations from a re-analysis of the deposited data

How the results depend on the processing

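No paired analysis was possible because the sample numbers in the titles are not shared between the groups. Members at an unadjusted p under 0.05 in limma numbered 1 with all arrays, 2 after quantile normalization again or median centring (Asb4 joined Ppp1r9a) and 0 without the members whose imprint depends on tissue. That count was 1 to 7 when 1 array was left out, and each fit with a lone knockout array gave 7. Genes passing an adjusted p of 0.05 were 0 with all arrays and 0 to 1011 with 1 left out: 1011 without knockout replicate 2 and 9 without knockout replicate 1, each with the lone array taken to vary like the controls. For the fits with a lone knockout array, the share of all genes at an unadjusted p under 0.05 was not computed. The members counted in those fits therefore cannot be set against a background. The median of the paternally expressed members ranged from -0.11 (without knockout replicate 2) to 0.081, and that of the maternally expressed from 0.07 to 0.11. Without tissue-dependent members the maternal median was 0.27.

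With array weights the sign turned for Cdkn1c (-0.027), Snrpn (0.074) and Dcn (-0.27), and with median centring for Cdkn1c (-0.011) and Dcn (-0.0016); the cause was not tested. The other 228 of 233 values of single members kept their direction and their side of the threshold in settings that used all arrays. With 1 array left out, 132 of 150 did, and 18 of the 30 tested members kept their sign in every setting run. The ranges of those that turned were -0.50 to 2.55 for Dlk1, -1.57 to 0.46 for Nnat, -0.64 to 0.11 for Igf2, -0.035 to 0.19 for Igf2r, -0.16 to 0.22 for Kcnq1ot1, -0.24 to 0.14 for Grb10, -0.29 to 0.42 for Rtl1, -0.020 to 1.38 for Peg10, -0.027 to 0.21 for Ube3a, -0.044 to 0.039 for Cdkn1c, -0.17 to 0.12 for Snrpn and -0.40 to 0.33 for Dcn.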
